A study of Mus musculus with 6 samples.

Results

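The 78 genes described here encode mitochondrial ribosomal proteins. They are the protein-coding rows whose symbols begin with Mrpl or Mrps and a number, 78 of the 55536 gene rows in the count files, with 49 Mrpl and 29 Mrps symbols. Their expression was measured by RNA sequencing in 6 mouse melanomas: 3 tumors of ATM knockout (ATM KO) B16 cells and 3 tumors of vector control B16 cells. B16 is a melanoma line of the C57BL/6 strain, and about 100000 cells were placed under the skin of C57BL/6J mice and the tumors taken on day 13. ATM is a kinase activated by breaks in DNA. How it was disrupted, whether the knockout line is 1 clone and whether every tumor had a host of its own are not given in the labels. The tests thus weigh genotype against the spread among these 6 tumors only, and an effect of the knockout cannot be told apart from one of the cell line carrying it. The labels name no change of Atm in the hosts, whose cells are part of each tumor.

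The mitochondrial ribosome translates the few mRNAs that mitochondrial DNA encodes, all of them for subunits of the respiratory chain and the ATP synthase. Its ribosomal RNAs come from mitochondrial DNA, but every protein of its large and small subunits is encoded in the nucleus, made in the cytosol and imported. Many of these proteins have a bacterial counterpart, and others exist only in mitochondria. Among the nuclear factors known to drive genes of mitochondrial proteins are the ETS factor GABP, NRF1 and YY1.

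Promoter letters were not used to choose the members. RefSeq promoters, from 250 bases before to 50 bases after the annotated start, were at hand for 69 members, as 75 promoters. The ETS motif CCGGAAG was in 34.7% of them, against 16.2% of the 13554 promoters of tested protein-coding genes and 8.86% of all 32851 promoters. The YY1 motif AAGATGGC was in 16% of member promoters, against 4.07% and 2.75%, and the palindromic NRF1 motif in 4% (3 of 75), against 1.90% and 0.971%. TATAAA was in 6.67%, against 7.61% and 13.6%, and the E-box motif CACGTG in 9.33%, against 9.55% and 7.15%. Each motif was searched on both strands, no 2 of these motifs overlap in the promoters printed here, and a match is a stretch of letters, not a shown binding site. Median GC content was 58.7% in member promoters, 60.3% in those of tested genes and 52.7% in all.

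Printed below are the promoters of the 5 members with the smallest p-values in the comparison of genotypes, on the strand of the gene in GRCm38.p6, with matches to the motifs above on either strand in capitals. In Mrps24 the capitals mark a reverse-strand TATAAA starting 181 bases upstream of the annotated start and AAGATGGC starting 36 bases after it. In Mrpl52 they mark a pair of reverse-strand ETS matches, 1 of them starting 47 bases upstream, in Mrpl3 an ETS match 19 bases upstream, and in Mrps22 an ETS match 11 bases upstream. Mrpl28 holds none of the motifs in this window.
Mrps24, chr11:5707652-5707951, minus strand: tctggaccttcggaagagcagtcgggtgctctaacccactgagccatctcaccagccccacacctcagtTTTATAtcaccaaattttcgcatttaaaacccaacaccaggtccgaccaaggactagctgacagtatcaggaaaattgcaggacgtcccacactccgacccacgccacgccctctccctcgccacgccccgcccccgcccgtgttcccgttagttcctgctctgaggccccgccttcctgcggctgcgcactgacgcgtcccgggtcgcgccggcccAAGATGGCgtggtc
Mrpl52, chr14:54426659-54426958, plus strand: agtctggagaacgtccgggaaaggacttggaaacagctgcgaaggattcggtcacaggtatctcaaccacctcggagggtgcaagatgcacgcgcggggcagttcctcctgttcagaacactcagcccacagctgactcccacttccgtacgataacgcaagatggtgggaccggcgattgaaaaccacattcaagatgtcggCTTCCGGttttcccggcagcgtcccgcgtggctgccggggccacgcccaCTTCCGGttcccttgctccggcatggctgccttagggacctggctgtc
Mrpl28, chr17:26123253-26123552, plus strand: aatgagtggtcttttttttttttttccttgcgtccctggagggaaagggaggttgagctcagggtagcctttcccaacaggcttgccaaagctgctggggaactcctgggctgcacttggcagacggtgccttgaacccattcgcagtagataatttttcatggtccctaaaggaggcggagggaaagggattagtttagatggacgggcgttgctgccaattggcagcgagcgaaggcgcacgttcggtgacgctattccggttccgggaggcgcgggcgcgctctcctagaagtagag
Mrpl3, chr9:105053018-105053317, plus strand: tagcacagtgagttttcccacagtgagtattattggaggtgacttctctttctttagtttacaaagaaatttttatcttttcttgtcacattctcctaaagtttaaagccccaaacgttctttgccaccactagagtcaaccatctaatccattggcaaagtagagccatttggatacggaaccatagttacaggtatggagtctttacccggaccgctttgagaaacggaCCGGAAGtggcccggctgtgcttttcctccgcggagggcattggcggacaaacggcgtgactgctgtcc
Mrps22, chr9:98601630-98601929, minus strand: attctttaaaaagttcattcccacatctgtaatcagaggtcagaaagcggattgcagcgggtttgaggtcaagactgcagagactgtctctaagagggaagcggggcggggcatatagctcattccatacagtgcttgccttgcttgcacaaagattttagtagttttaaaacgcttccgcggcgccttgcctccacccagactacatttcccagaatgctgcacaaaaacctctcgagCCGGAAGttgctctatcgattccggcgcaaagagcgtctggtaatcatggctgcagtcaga

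Counts on genes summed to between 23663109 and 29037715 in ATM KO tumors and between 22101124 and 24165801 in vector control tumors, and every pair of tumors within a group differed by more than counting noise. Levels are read counts scaled to the library sizes with TMM factors (CPM), and log2 fold changes are ATM KO minus vector control with edgeR. All 7 melanocyte lineage markers, such as Tyr and Pmel, were detected, summing to 18822 to 19058 CPM in ATM KO tumors and 18811 to 27174 CPM in vector control tumors. The 13 skeletal muscle markers differed far more between single tumors, summing to 708 to 8279 CPM in ATM KO tumors and 28.6 to 8211 CPM in vector control tumors. Atm itself was at 112 ± 17.99 CPM in ATM KO tumors and 105 ± 8.09 CPM in vector control tumors (SD, n = 3 each; edgeR adjusted p = 0.707). Counts over the whole gene do not check the genotype labels.

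The mitochondrial ribosomal protein genes had closely similar summed levels in both genotypes, and 1 gene passed the test. Of the 78 members 77 had enough counts to be tested, and 1 was called, Mrps24, which was lower in ATM KO tumors. That is 1.30% of the tested members, below the 4.96% of all 15696 tested genes that were called in either direction, of which 2.21% were higher and 2.75% lower. No member was called higher in edgeR, and an unadjusted p below 0.05 was reached by 4 members on the higher side, against 10.6% of all genes, and 7 on the lower side, against 12.3% of all genes. DESeq2 called Mrpl28 higher and Mrps24, Mrpl52, Mrpl3 and Mrps22 lower, where it called 13.2% of all tested genes, and limma-voom called no member, against 4.42% of all tested genes. The median log2 fold change was -0.01 over the tested members and -0.0058 over all tested genes, with 37 members above 0 and 40 below, against 49.1% and 50.9% of all genes. With library size as the only scaling, 28 members were below 0 and the medians were 0.04 for members and 0.04 for all genes. For 67 of 77 members the difference was under 0.25 on the log2 scale, with a median SE of 0.09. The ATM KO values lay all above the vector control values in 9 members (11.7%, against 14.3% of all tested genes) and all below in 10 members (13.0%, against 15.4%).

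**Figure D1:**
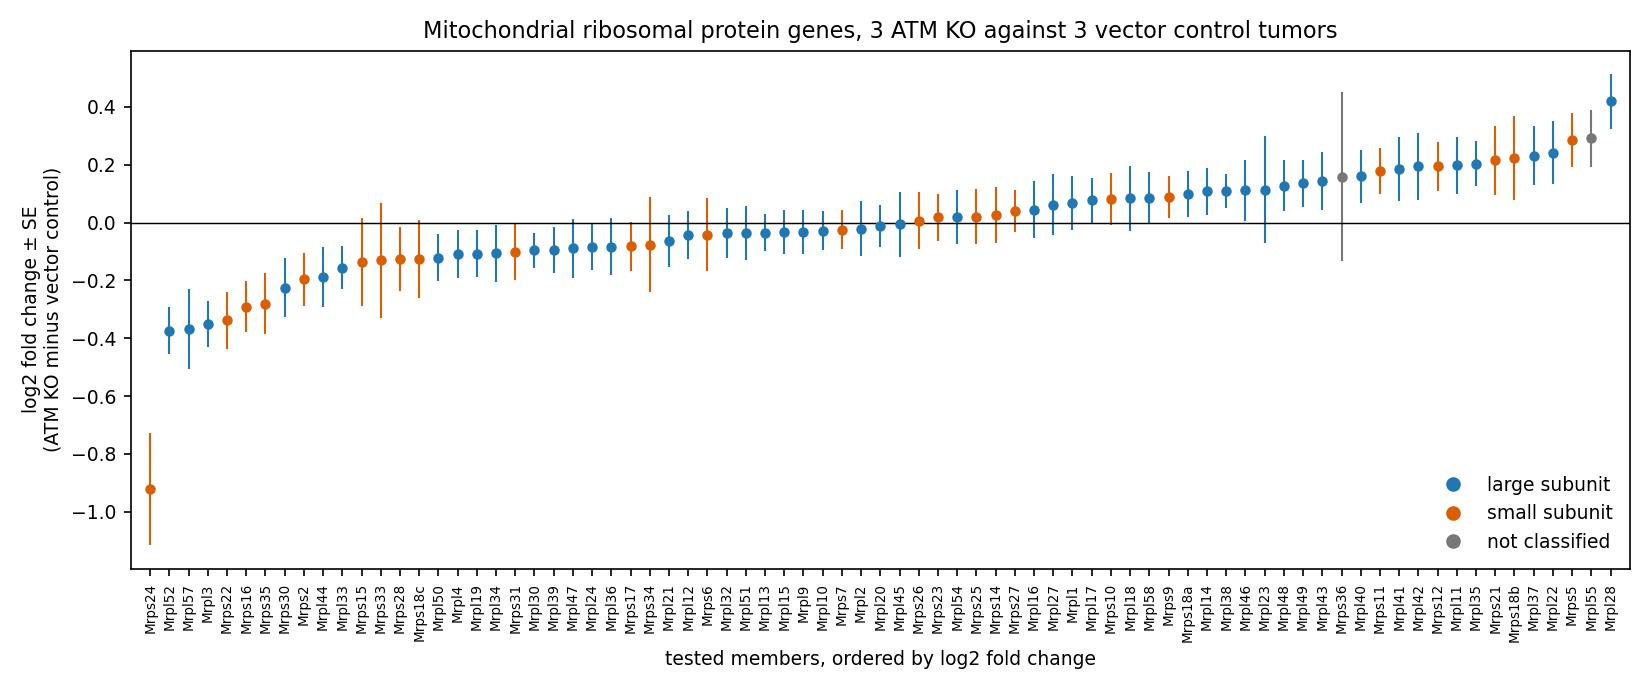
Log2 fold change (vertical axis, ATM KO minus vector control, ± SE) of the 77 tested members, ordered along the horizontal axis and coloured by subunit. The members run from -0.92 for Mrps24 to 0.42 for Mrpl28, and 67 of them differ by less than 0.25.

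Summed over all members, the level was 2963, 3001 and 2812 CPM in ATM KO tumors 1, 2 and 3, against 3096, 2955 and 2838 CPM in vector control tumors 1, 2 and 3. The groups overlapped, and the mean was 2925 ± 99.99 CPM in ATM KO tumors and 2963 ± 129 CPM in vector control tumors (SD, n = 3 each). Vector control tumor 1 held the highest value of the 6 tumors in 33 of 77 members, more than any other tumor, and ATM KO tumor 3 the lowest value in 24. Vector control tumor 1 also had the highest sum of melanocyte markers (27174 CPM), the lowest of the 8 pan-leukocyte markers (422 CPM, against 655 to 854 CPM in ATM KO tumors and 680 to 970 CPM in the other vector control tumors) and the lowest of the 13 muscle markers (28.6 CPM), with no marker of these lists at 0 throughout. Their part in the member levels was not tested, and in bulk tumors fewer cells of a type and less RNA per cell cannot be told apart. Muscle sums of 8279 and 8211 CPM in ATM KO tumor 2 and vector control tumor 3 went with member sums of 3001 and 2838 CPM. The members varied less between tumors of a group than the median gene. Their median coefficient of variation was 5.73% in ATM KO tumors and 7.56% in vector control tumors, against 10.1% and 12.2% over all tested genes. The tested cytosolic ribosomal protein genes were at 5.45% and 7.07%, so a low spread is not particular to the members. Genes were not matched for level in this comparison.

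Levels of the members relative to exon length spanned a wide range. Exon length here is that of all annotated exons of a gene merged, which can far exceed its transcripts. Mrpl13 has 7936 such bases and 1223 in its longest coding transcript, Mrpl12 1532 and 1316, and Mrpl23 4883 and 736. Ranks thus depend on the length used. The median was 12.7 CPM per kb of exon over the 6 tumors, with quartiles of 7.75 and 21.95, against a median of 5.20 over all tested genes. Mrpl12, the counterpart of the bacterial stalk protein, which also binds the mitochondrial RNA polymerase, was highest on this measure at 66.3 CPM per kb. It held 101, 105 and 93.6 CPM in ATM KO tumors and 112, 102 and 95.8 CPM in vector control tumors, which overlapped (log2 fold change -0.04 ± 0.08, edgeR adjusted p = 0.829). Mrps23 followed at 53.7 CPM per kb and Mrpl2, a core protein of the large subunit, at 47.7 CPM per kb. Their CPM also overlapped between the groups: 80.8 to 87.8 for Mrps23 in ATM KO tumors against 76.99 to 90.9 in vector control tumors, and 52.4 to 57.1 for Mrpl2 in ATM KO tumors against 49.5 to 61.2 in vector control tumors.

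On the same measure the lowest members were Mrpl53 at 0.0941, Mrps36 at 0.675 and Mrpl23 at 0.684 CPM per kb of merged exon. Mrpl53 held 2, 1 and 2 counts in ATM KO tumors and 4, 0 and 2 in vector control tumors, and was the member below the filter. Of its exon bases 88.0% also lie in exons of other annotated genes, Gm42688 on its strand and Ccdc142os on the opposite one. For Mrpl23, 68.9% of its longest coding transcript has a pseudogene copy, and for Mrps36 44.1%. Reads shared between genes or copies may be missing from such counts, so these levels are uncertain. Mrps36, since assigned to the oxoglutarate dehydrogenase complex rather than to the ribosome, held 16, 28 and 31 counts in ATM KO tumors and 20, 15 and 21 in vector control tumors. In all, 14 members had a pseudogene copy and 33 shared exon bases with another gene, 3 of them (Mrpl53, Mrps34 and Mrps25) over 50% of their exon bases.

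**Figure D2:**
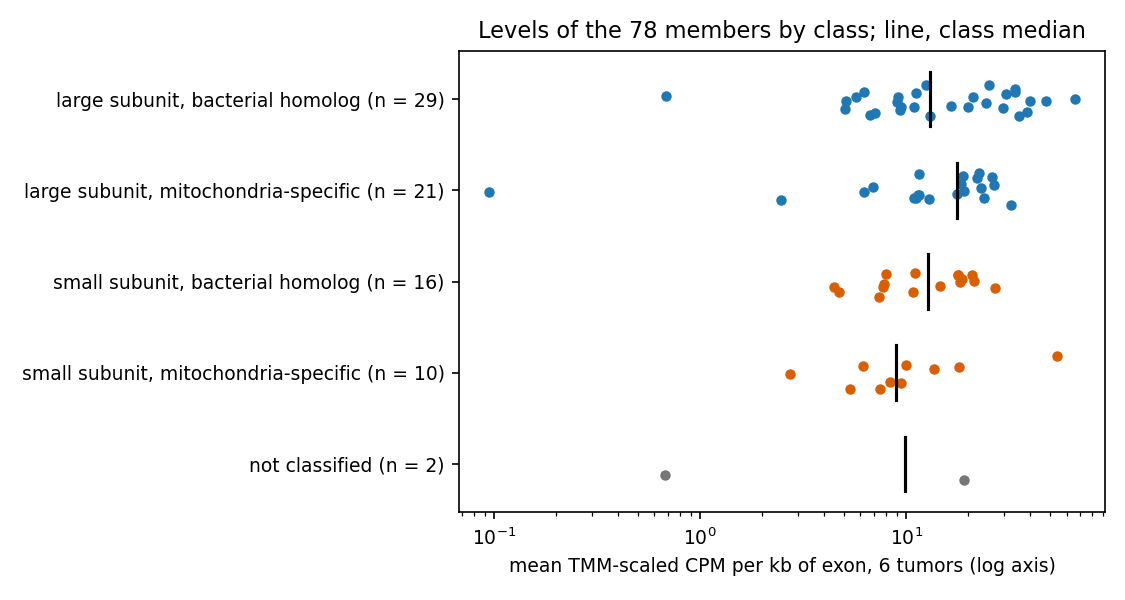
Mean level over the 6 tumors in TMM-scaled CPM per kb of exon (log axis) of each of the 78 members, by subunit and by presence of a bacterial homolog, with the class median as a line. Class medians lie between 8.89 and 17.6 CPM per kb, and Mrpl53, Mrps36 and Mrpl23 lie below 1.

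In the small subunit, which binds the mRNA and decodes it, edgeR called 1 of 26 tested genes, DESeq2 2 and limma-voom 0. Of all tested genes these called 4.96%, 13.2% and 4.42%. Mrps24, the counterpart of the bacterial protein S3 at the site where mRNA enters the ribosome (chromosome 11, 5703983 to 5715680, minus strand), had 17.7, 14.4 and 12.3 CPM in ATM KO tumors, against 34.1, 22.8 and 27.1 CPM in vector control tumors. Every ATM KO tumor lay below every vector control tumor, with the widest spread in the controls. The means were 14.8 ± 2.74 CPM in ATM KO tumors and 27.995 ± 5.67 CPM in vector control tumors (SD, n = 3 each), a fold of 0.528 and a log2 fold change of -0.92 ± 0.19 (edgeR adjusted p = 0.0499). The raw counts were 432, 401 and 359 in ATM KO tumors and 770, 499 and 655 in vector control tumors.

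The call of Mrps24 sits at the threshold. It held with DESeq2 (adjusted p = 0.000637) and ended with limma-voom (0.0520), and it ended without each tumor in turn except vector control tumor 1, with adjusted p-values of 0.105 to 0.164 in those 5 fits. The log2 fold change stayed between -1.07 and -0.75 in all 6 of them. The tested genes of its chromosome that are not members had a median log2 fold change of 0.0079, and those of its 10 Mb window 0.07. Of the exon bases of Mrps24, 15.4% are shared with Urgcp on the same strand, which was at 55.5 ± 2.05 CPM in ATM KO tumors and 51.3 ± 4.27 CPM in vector control tumors (log2 fold change 0.11, edgeR adjusted p = 0.461). No pseudogene copy of Mrps24 was found. Its RefSeq promoter, printed above, lies inside the gene as GENCODE annotates it, because GENCODE places the outermost start further upstream, and it was 1 of 12 member promoters with the YY1 motif.

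**Figure D3:**
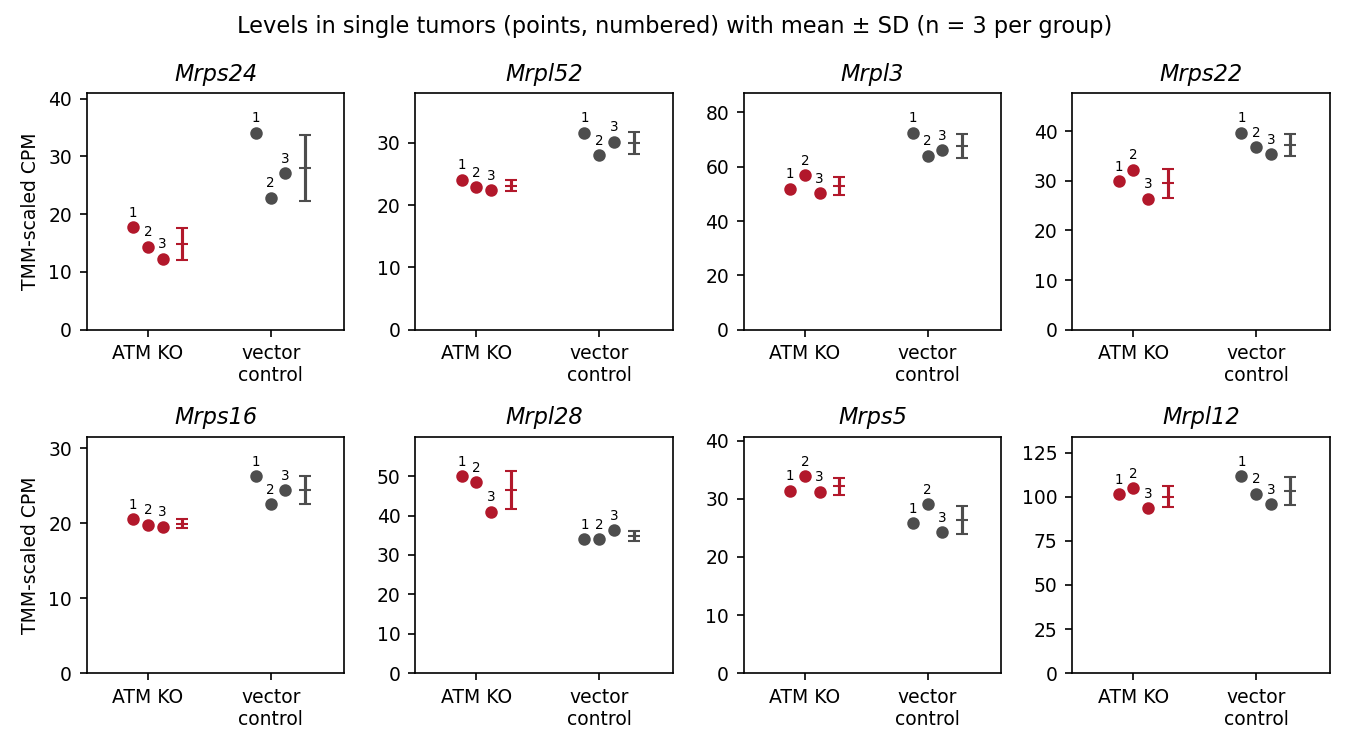
TMM-scaled CPM of 8 members in single tumors (points, numbered by replicate) with mean ± SD (n = 3 per group), ATM KO left of vector control. Values of Mrps24, Mrpl52, Mrpl3, Mrps22 and Mrps16 are all lower in ATM KO tumors, those of Mrpl28 and Mrps5 all higher, and those of Mrpl12 overlap.

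None of the other 25 tested small-subunit genes was called in edgeR, and Mrps22 was called lower in DESeq2. Mrps22, a protein found only in mitochondrial ribosomes (chromosome 9), had 29.9, 32.3 and 26.4 CPM in ATM KO tumors, against 39.7, 36.8 and 35.4 CPM in vector control tumors. The groups did not overlap, and the log2 fold change was -0.34 ± 0.10 (edgeR adjusted p = 0.107, DESeq2 adjusted p = 0.0438). Mrps5, the counterpart of a bacterial protein at the mRNA channel (chromosome 2), was among those in the other direction. It had 31.4, 33.9 and 31.2 CPM in ATM KO tumors, against 25.8, 29.0 and 24.3 CPM in vector control tumors, again without overlap (0.29 ± 0.09, edgeR adjusted p = 0.135). The 16 small-subunit genes with a bacterial homolog had a median log2 fold change of -0.03, and so did the 10 mitochondria-specific ones (-0.03).

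The Mrps18 family holds 3 paralogs of bacterial S18, and a ribosome carries them at different places: Mrps18b and Mrps18c in the small subunit and Mrps18a in the large one. None of the 3 was called. Mrps18a had 44.2, 41.3 and 42.3 CPM in ATM KO tumors and 36.6, 40.6 and 42.1 CPM in vector control tumors. Mrps18b had 18.5, 17.8 and 14.2 CPM in ATM KO tumors and 12.9, 16.2 and 14.1 CPM in vector control tumors. Mrps18c had 9.72, 12.3 and 11.8 CPM in ATM KO tumors and 12.9, 12.7 and 11.4 CPM in vector control tumors. The groups overlapped for each, with log2 fold changes of 0.10 ± 0.08, 0.22 ± 0.15 and -0.13 ± 0.13. Per kb of merged exon Mrps18a was at 11.2, Mrps18c at 10.98 and Mrps18b at 7.48 CPM. Their merged exons hold 3690, 1076 and 2089 bases, and their longest coding transcripts 884, 820 and 1079. How the 3 compare thus depends on the length used.

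In the large subunit, which forms the peptide bonds, none of 50 tested genes, Mrpl55 included, was called in edgeR, against 4.96% of all tested genes. An unadjusted p below 0.05 was reached by 3 on each side, against 10.6% of all tested genes on the higher side and 12.3% on the lower. DESeq2 called Mrpl28 higher and Mrpl52 and Mrpl3 lower, where it called 13.2% of all tested genes. Mrpl28, a protein with a bacterial homolog (chromosome 17), had the largest positive log2 fold change of the members. It had 49.9, 48.5 and 41.0 CPM in ATM KO tumors, against 34.1, 34.0 and 36.2 CPM in vector control tumors. The groups did not overlap (0.42 ± 0.09, edgeR adjusted p = 0.0572, DESeq2 adjusted p = 0.00685). The median over the non-member genes of chromosome 17 was 0.10 and over those of its 10 Mb window 0.19.

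Mrpl3, the counterpart of a bacterial protein next to the peptidyl transferase center (chromosome 9), had 51.9, 56.8 and 50.2 CPM in ATM KO tumors, against 72.5, 64.1 and 66.1 CPM in vector control tumors. All ATM KO values lay below the vector control values (-0.35 ± 0.08, edgeR adjusted p = 0.0591, DESeq2 adjusted p = 0.00577). Mrpl52, found only in mitochondrial ribosomes (chromosome 14), had 24.1, 22.9 and 22.4 CPM in ATM KO tumors, against 31.6, 28.1 and 30.2 CPM in vector control tumors. Here too the groups did not overlap (-0.37 ± 0.08, edgeR adjusted p = 0.0545, DESeq2 adjusted p = 0.00613). Mrpl57, on the same chromosome, had 19.4, 19.0 and 14.99 CPM in ATM KO tumors, against 23.1, 20.4 and 25.3 CPM in vector control tumors (-0.37 ± 0.14, edgeR adjusted p = 0.176).

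Mrpl55 and Mrpl22 were higher in every ATM KO tumor than in every vector control tumor without passing the test. Mrpl55 had 20.3, 23.1 and 21.2 CPM in ATM KO tumors and 19.0, 16.6 and 17.2 CPM in vector control tumors (0.29 ± 0.10, edgeR adjusted p = 0.148). Mrpl22, whose bacterial counterpart lines the tunnel for the new protein, had 11.8, 12.3 and 11.6 CPM in ATM KO tumors and 10.3, 10.4 and 9.48 CPM in vector control tumors (0.24 ± 0.11, edgeR adjusted p = 0.245). For Mrpl22, 86.0% of the longest coding transcript has a pseudogene copy, so its level is uncertain. Mrps30, which despite its name sits in the large subunit, had 38.1, 37.2 and 39.5 CPM in ATM KO tumors and 51.2, 41.9 and 41.1 CPM in vector control tumors (-0.23 ± 0.10, edgeR adjusted p = 0.248). Mrpl58, a peptidyl-tRNA hydrolase that rescues stalled ribosomes, had 39.8, 38.5 and 33.9 CPM in ATM KO tumors and 34.3, 37.6 and 33.9 CPM in vector control tumors (0.08 ± 0.09, edgeR adjusted p = 0.650). The median log2 fold change was 0.09 over the 20 tested mitochondria-specific proteins of the large subunit and -0.03 over the 29 with a bacterial homolog.

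The members lie on 17 chromosomes, and their values were near the median of the non-member genes on some chromosomes and apart from it on others. On chromosome 14 the median log2 fold change of the tested genes that are not members was -0.35, and the 3 members there, Mrpl52, Mrpl57 and Mrps16, were at -0.37, -0.37 and -0.29. Mrps16, a small-subunit protein with a bacterial homolog, had 20.6, 19.8 and 19.5 CPM in ATM KO tumors, against 26.3, 22.6 and 24.4 CPM in vector control tumors (edgeR adjusted p = 0.119). On chromosome 8, with a median of -0.26, the members Mrpl34 and Mrps31 were at -0.11 and -0.10. On chromosome 9, with a median of -0.10, Mrpl3, Mrps22 and Mrpl4 were at -0.35, -0.34 and -0.11. On chromosome 17, with a median of 0.10, 6 of 8 members were above 0. On chromosome 2, with a median of 0.15, the 4 members ran between -0.20 for Mrps2 and 0.29 for Mrps5. Taking each member relative to the median of its chromosome gave an interquartile range of 0.16, against 0.21 without this step, and left 39 below and 38 above 0. Mrps24 kept its distance, since the median of chromosome 11 was 0.0079.

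**Figure D4:**
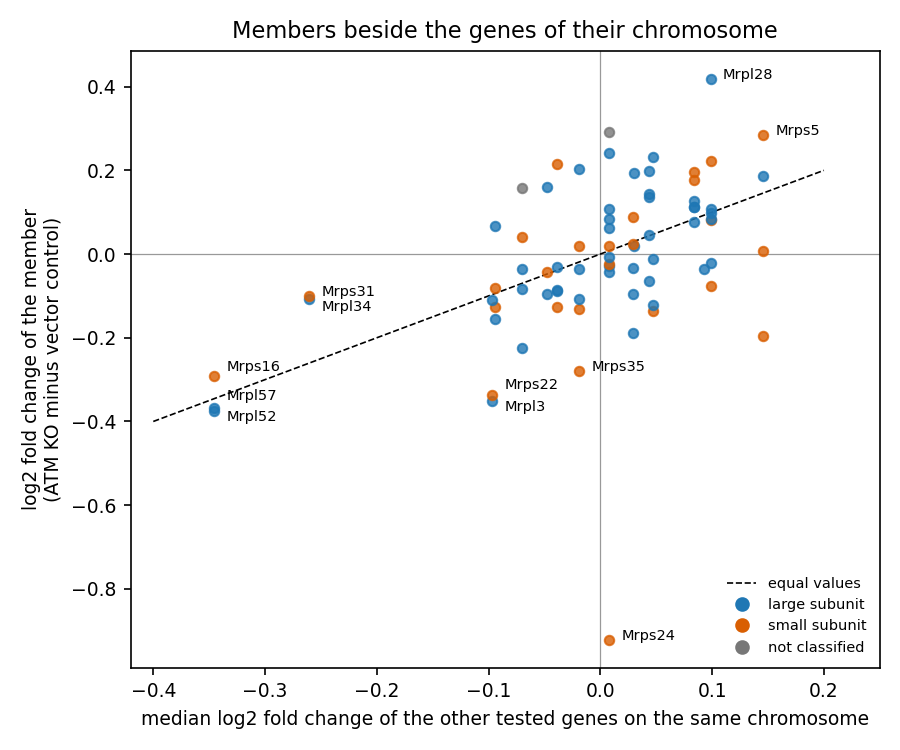
Log2 fold change of each tested member (vertical axis) against the median log2 fold change of the tested non-member genes on its chromosome (horizontal axis), with equal values as a dashed line. The 3 members of chromosome 14 lie near the line at -0.29 to -0.37, and Mrps24 lies far below it at -0.92.

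The 5 mitochondrial ribosomal proteins that carry other symbols were tested as well, and none was called in edgeR or limma-voom. At an unadjusted p below 0.05, 0 were higher and 2 lower, against 10.6% and 12.3% of all tested genes. DESeq2 called 2 lower, where it called 13.2% of all tested genes in either direction. Chchd1, of the small subunit and on chromosome 14, had 30.2, 31.5 and 26.3 CPM in ATM KO tumors and 42.3, 37.6 and 37.1 CPM in vector control tumors (-0.41 ± 0.10, edgeR adjusted p = 0.0698). Gadd45gip1, of the large subunit and on chromosome 8, had 32.3, 27.4 and 24.1 CPM in ATM KO tumors and 43.9, 41.7 and 36.1 CPM in vector control tumors (-0.54 ± 0.13, edgeR adjusted p = 0.0712). Both had groups that do not overlap and lie on the chromosomes with the lowest medians named above. Dap3 (-0.01), Ptcd3 (-0.09) and Aurkaip1 (0.12) were nearer to 0. Aurkaip1 also had groups that do not overlap, with the ATM KO values all above. Of all tested genes 15.4% had the ATM KO values all below and 14.3% all above.

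Of 15 tested mitochondrial translation factors 3 fell and none rose in edgeR, against 2.75% and 2.21% of all tested genes. An unadjusted p below 0.05 was reached by 3 on the lower side and none on the higher, against 12.3% and 10.6% of all tested genes. DESeq2 called 3 lower and limma-voom 2, with none higher in either, where these called 13.2% and 4.42% of all tested genes. Mrrf, the ribosome recycling factor, had 19.6, 20.6 and 20.5 CPM in ATM KO tumors, against 29.2, 29.5 and 26.6 CPM in vector control tumors (-0.49 ± 0.08, edgeR adjusted p = 0.0331). Oxa1l, which inserts newly made proteins into the inner membrane, had 36.7, 36.9 and 34.9 CPM in ATM KO tumors, against 51.5, 49.2 and 50.2 CPM in vector control tumors (-0.48 ± 0.06, edgeR adjusted p = 0.0218). Oxa1l lies on chromosome 14. Guf1, a translational GTPase, had 67.5, 72.9 and 72.6 CPM in ATM KO tumors, against 105, 92.8 and 86.6 CPM in vector control tumors (-0.42 ± 0.09, edgeR adjusted p = 0.0497). None of the 3 had overlapping groups, and the median over the 15 was -0.10.

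Of 25 tested assembly factors of the mitochondrial ribosome 1 rose and none fell in edgeR, against 2.21% and 2.75% of all tested genes. By unadjusted p below 0.05, 3 were higher and 5 lower, against 10.6% and 12.3% of all tested genes. With limma-voom 1 was called higher, and with DESeq2 2 were higher and 1 lower, where these called 4.42% and 13.2% of all tested genes. Eral1, a GTPase that binds the ribosomal RNA of the small subunit, had 28.1, 27.2 and 27.1 CPM in ATM KO tumors, against 21.5, 21.0 and 19.5 CPM in vector control tumors (0.41 ± 0.08, edgeR adjusted p = 0.0424). The median over the 25 was -0.04. None of 10 regulators of nuclear genes for mitochondria was called in edgeR, and their median was -0.13. At an unadjusted p below 0.05, 1 was on the higher side and 3 on the lower, against 10.6% and 12.3% of all tested genes. Neither DESeq2 nor limma-voom called any. Gabpa, a subunit of the ETS factor GABP, had 90.01, 100.3 and 102.6 CPM in ATM KO tumors and 121, 114 and 106 CPM in vector control tumors (-0.22 ± 0.08, edgeR adjusted p = 0.179). Yy1 was at 120.0 ± 8.50 CPM in ATM KO tumors and 141 ± 16.4 CPM in vector control tumors (edgeR adjusted p = 0.247), and Nrf1 at 45.6 ± 0.529 CPM in ATM KO tumors and 51.5 ± 2.47 CPM in vector control tumors (edgeR adjusted p = 0.173).

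A list of protein-coding rows with symbols of cytosolic ribosomal proteins was read in the same fit. It was taken by symbol, so its 92 rows include 6 named as pseudogenes, none of them tested, and Rps19bp1, a binding protein (log2 fold change 0.01, edgeR adjusted p = 0.982). Of 83 tested genes 8 fell and none rose in edgeR, against 2.75% and 2.21% of all tested genes. A log2 fold change below 0 was found for 64, against 50.9% of all tested genes and 40 of 77 mitochondrial ribosomal proteins. The median was -0.14, against -0.01 for the mitochondrial ribosomal proteins. At an unadjusted p below 0.05, 1 was higher and 22 lower, against 10.6% and 12.3% of all tested genes. With limma-voom 8 were lower, and with DESeq2 18 were lower and 1 higher, where these called 4.42% and 13.2% of all tested genes. The ATM KO values lay all below the vector control values in 33 of the 83, against 15.4% of all tested genes. Summed over their 92 rows, the level was 8037, 8202 and 8223 CPM in ATM KO tumors, against 9176, 9668 and 8915 CPM in vector control tumors, without overlap. The difference between the ribosomes was not tested, and many cytosolic ribosomal protein genes have near-identical pseudogenes, so their levels are uncertain.

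**Figure D5:**
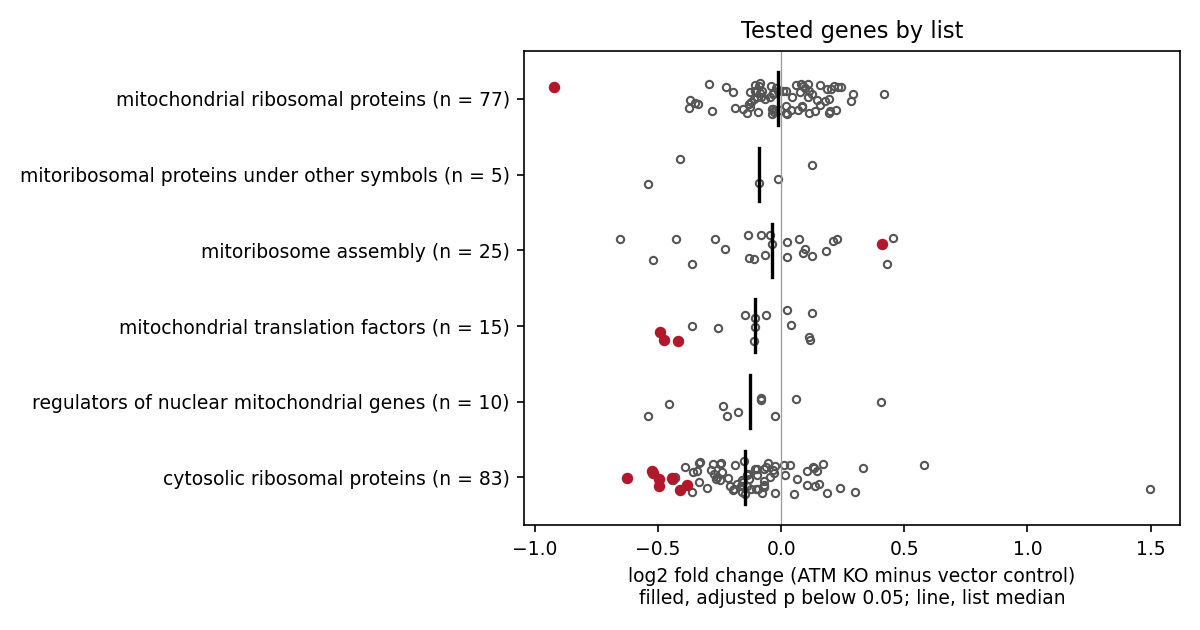
Log2 fold change (ATM KO minus vector control) of the tested genes of 6 lists, with genes at an adjusted p below 0.05 filled and list medians as lines. The mitochondrial ribosomal proteins center on -0.01 with 1 gene called, and the cytosolic ribosomal proteins on -0.14 with 8 called.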

How the data were processed

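RNA sequencing of 6 tumors was analysed, 1 library per tumor. The deposited files hold raw counts of reads per gene, made by the authors with no normalization. Per the submitters' processing notes, the tools were STAR, HTSeq, SAMtools, cutadapt and Trim Galore, whose roles are not stated, and the builds mm10 and GRCm38. The strand setting and the handling of reads on overlapping genes are not given in the sources used here. Rows naming no gene were left out: reads outside genes were 16.7% to 18.2% and ambiguous reads 1.21% to 1.38% of the reads listed, and the counters of multiply aligned reads are at 0.

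All 55536 gene rows matched GENCODE M21 (GRCm38), which gave coordinates and exon lengths, with all annotated exons of a gene merged. Genes passing filterByExpr (minimum count 10, minimum total 15) numbered 15696. Library sizes over these genes were scaled by TMM, and edgeR 4.0.16 (R 4.3.3) gave robust quasi-likelihood F tests with genotype as the only term. P-values were adjusted over all tested genes by the Benjamini-Hochberg method, and 0.05 was the threshold. The SE is the log2 fold change divided by the square root of F. The procedure was checked on simulated counts. Pseudogene copies were transcript stretches of at least 100 bases at 97% identity or more, found with BLAST. Promoter sequences came from RefSeq (GRCm38.p6).

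The members and gene lists were chosen with earlier results of these data known. Named were called members, the 4 highest and 4 lowest uncalled members whose groups do not overlap, the 3 highest and 3 lowest per kb of exon, the member below the filter, 8 fixed members, called genes of the other lists, and Atm. Other named genes were chosen after their values were seen. The labels do not say that a replicate number links tumors, and same-numbered tumors did not deviate together (correlations of deviations 0.03, -0.29 and -0.45), so no block was used. Alternatives were DESeq2 1.42.0, limma-voom (limma 3.58.1), other scalings, filters and dispersions, protein-coding genes only, a replicate block, a threshold of 0.10, leaving out each tumor and, added after seeing the data, library sizes over all genes.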

Additional observations from a re-analysis of the deposited data

How the results depend on the processing

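The median log2 fold change of the members lay between -0.02 and 0.04 under the alternatives run, and was -0.02 to 0.02 when single tumors were left out. It was 0.04 with library size as the only scaling, which moved the median of all genes by about as much (to 0.04), and 28 members were then below 0. The number of members called lower was 4 with DESeq2, 3 at a threshold of 0.10 and 0 with limma-voom, library size alone, non-robust dispersions, protein-coding genes only or the replicate block, and 0 to 1 when single tumors were left out. The number called higher was 1 (Mrpl28) with DESeq2, without a filter, with at least 1 CPM in 3 libraries, with protein-coding genes only and at a threshold of 0.10, and 0 without any single tumor. Over all genes 2070 were called with DESeq2, 1699 at a threshold of 0.10 and none (0) with the replicate block. The labels do not say that replicate numbers pair the tumors. When single tumors were left out, 2 to 1209 genes were called. These were 2, 42 and 196 without ATM KO tumors 1, 2 and 3, and 1209, 28 and 110 without vector control tumors 1, 2 and 3. Signs near 0 turned for Mrpl12 (0.0072 with library size alone, -0.081 to 0.019 without single tumors), for Mrpl2 (0.026 with library size alone, 0.0081 with at least 1 CPM in 3 libraries, 0.011 with protein-coding genes only, -0.10 to 0.072 without single tumors), for Mrps23 (-0.023 to 0.088 without single tumors) and for Atm (-0.033 without ATM KO tumor 2, up to 0.20 without ATM KO tumor 1). The calls of Mrrf, Oxa1l, Guf1 and Eral1 ended under 6, 6, 8 and 7 of 17 alternatives. The causes were not tested. Counts were few for Mrpl53, which was below the filter, and for Mrps36, which has 131 counts in all.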

Other observations

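Mrps11 and Mrpl46 stand head to head on chromosome 7 and share exon bases on opposite strands, 7.97% of those of Mrps11 and 12.2% of those of Mrpl46. Mrps11 had 25.4, 25.4 and 23.9 CPM in ATM KO tumors, against 21.9, 23.0 and 21.1 CPM in vector control tumors, without overlap (log2 fold change 0.18 ± 0.08, edgeR adjusted p = 0.248). Mrpl46 had 18.6, 16.3 and 15.9 CPM in ATM KO tumors, against 16.7, 15.1 and 15.2 CPM in vector control tumors, with overlap (0.11 ± 0.11, edgeR adjusted p = 0.598). The median over the non-member genes of their chromosome was 0.08, and over those of their 10 Mb window 0.11. This pair was chosen after its values were seen.

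Annotated pseudogenes with Mrpl or Mrps symbols held few counts. Mrpl23-ps1 had 5, 5 and 3 counts in ATM KO tumors and 0, 3 and 6 in vector control tumors, Mrpl48-ps had 2, 3 and 6 in ATM KO tumors and 1, 5 and 6 in vector control tumors, and the 3 Mrps36 pseudogenes were at 0 in all 6.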
